A study of Mus musculus with 8 samples.

Results

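The genes described are 9 that move or convert 2-oxoglutarate and related dicarboxylates: Slc13a2, Slc13a3, Slc25a10, Slc25a11, Ogdh, Idh1, Idh2, Aco1 and Aadat. They were listed by their roles, with earlier results of these data known, and each was read from a probe set annotated with that symbol alone. All 9 were measured, each by 1 such probe set, out of 19938 genes. RNA came from dissected renal cortex of 4 SPAK KO mice, which lack the kinase encoded by Stk39, and of 4 wild-type (WT) littermates. All were male C57Bl6J mice killed at 10 weeks of age, genotyped by PCR on tail snips, with free access to water and a diet of 0.32% NaCl and 1% KCl. How Stk39 was disrupted is not stated in the labels. The design asked which genes might cooperate to limit renal salt loss without SPAK. Each value is a log2 RMA expression value of 1 Affymetrix array, so a difference of 1 stands for a doubling.

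Dicarboxylates are intermediates of the citric acid cycle and a main fuel of proximal tubule cells. These cells take citrate, succinate and 2-oxoglutarate back from the filtrate across the apical membrane and from blood across the basolateral membrane. In the mouse nephron 2-oxoglutarate left in the tubular fluid is also a signal, read further downstream by the receptor Oxgr1 on type B intercalated cells. Inside the cell it is made by isocitrate dehydrogenases and by aminotransferases, and used by the 2-oxoglutarate dehydrogenase complex.

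Both genes of the SLC13 family carry sodium-coupled dicarboxylate transporters, and their promoters are shown because these were the members whose genotypes did not overlap. The 250 bases before the RefSeq start of each gene (GRCm38.p6) are printed from 5′ to 3′ on the gene's strand, with motif matches in capitals. All 9 genes had an entry in that table.
Slc13a2, chr11:78422235-78422484, minus strand: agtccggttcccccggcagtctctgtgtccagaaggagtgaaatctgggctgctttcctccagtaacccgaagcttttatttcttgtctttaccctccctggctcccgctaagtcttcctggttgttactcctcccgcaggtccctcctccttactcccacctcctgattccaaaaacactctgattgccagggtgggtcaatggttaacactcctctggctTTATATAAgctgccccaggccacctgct
Slc13a3, chr2:165473198-165473447, minus strand: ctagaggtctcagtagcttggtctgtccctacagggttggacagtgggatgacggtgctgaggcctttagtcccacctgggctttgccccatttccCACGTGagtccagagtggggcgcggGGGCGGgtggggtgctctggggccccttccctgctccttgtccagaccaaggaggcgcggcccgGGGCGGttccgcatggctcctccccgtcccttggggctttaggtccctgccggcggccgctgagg

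Both strands were searched for 5 motifs picked after these sequences had been seen. The TATA box was written as TATANAA and the GC box as GGGCGG. The E box was CACGTG, a palindrome. The other letters searched were CCAAT, and for the half-site of the liver and kidney factor HNF1 the letters GTTAAT. The capitals in Slc13a2 are overlapping TATANAA matches on the 2 strands, the plus-strand one beginning 27 bases before the start. TATANAA was held by 10.4% of 32851 promoters of that length and, of the 9 genes, by Slc13a2 alone. In Slc13a3 the capitals are an E box, held by 6.02% of promoters, and a GC box in 2 places, held by 32.7%. The GC box occurred upstream of 7 of the 9 genes, the letters CCAAT (33.8% of promoters) of 4, the E box of 2 and the HNF1 half-site (6.43%) of 0. A gene was counted if any of its starts had a match. The 9 genes have 15 starts, with 6 for Ogdh and 2 for Idh1, so these counts and the percentages are on unlike bases. These matches describe letters in a window, and no binding was measured.

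The arrays of a genotype did not all differ equally. Among 6297 genes with a mean above 8, only 1 to 10 differed by more than 0.4 between any 2 SPAK KO arrays, and 3 between WT 2 and WT 3, against 119 to 228 in the other WT pairs. WT 2 and WT 3 are therefore counted as 1 sample in means and SD (n = 3), and SPAK KO values are given as arrays or ranges. The tests, and the differences, SE and intervals given with them, counted all 8 arrays separately unless stated otherwise. The labels name 8 mice, but p-values measure only the spread between these arrays, which for SPAK KO may be technical. Array medians were 6.09 to 6.12 in SPAK KO and 6.13 to 6.19 in WT. Stk39 was lower in SPAK KO by a log2 difference of −1.38 ± 0.11 (SE; limma adjusted p = 5.8e-04), with no overlap of the groups.

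Slc13a2 was the 1 member that passed the test, and it was higher in SPAK KO. It encodes NaDC1, the apical transporter that reabsorbs citrate, succinate and 2-oxoglutarate from the filtrate. Its log2 values were 10.12, 10.15, 10.01 and 10.07 on SPAK KO arrays 1 to 4, against 9.49, 9.59, 9.54 and 9.71 on WT arrays 1 to 4. All 4 SPAK KO arrays lay above the highest WT array, WT 4. WT averaged 9.59 ± 0.11 (SD, n = 3). The difference was 0.51 ± 0.06 (SE), or 1.42-fold with a 95% interval of 1.298 to 1.56, at limma adjusted p = 0.00362. Among 19938 genes 1.39% were called higher and 2.08% in either direction, so 1 of 9 members is a count of a single gene and reads as no more than that. By p it ranked 32 among all genes. Slc13a2 passed whichever of the 8 arrays was left out, with adjusted p between 0.00185 and 0.0213, and with WT 2 and WT 3 averaged (0.0118). With arrays that agree counted once, which leaves 1 SPAK KO sample against 3 WT samples, the difference was 0.503 and the call was lost (limma adjusted p = 1.0), as was every other call over all genes.

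Slc13a3 encodes NaDC3, the high-affinity dicarboxylate transporter of the basolateral membrane, which supplies 2-oxoglutarate for exchange by organic anion transporters. Its log2 values were 12.89, 12.84, 12.85 and 12.83 on SPAK KO arrays 1 to 4, against 12.65, 12.53, 12.52 and 12.71 on WT arrays 1 to 4. The groups did not overlap, but the difference of 0.25 ± 0.06 (SE; 1.19-fold, 95% interval 1.09 to 1.298) missed the threshold at limma adjusted p = 0.0520. It passed in 1 of the 8 refits without 1 array: without WT 4, the highest WT array, the difference was 0.29 and the adjusted p 0.0266. In the other refits the adjusted p was 0.0577 to 0.147. With WT 2 and WT 3 averaged, the difference was 0.22 and the limma adjusted p 0.115. Over all genes, 6.90% had every SPAK KO array above every WT array and 5.71% every one below; of the 9 members 2 were above and 0 below.

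**Figure D1:**
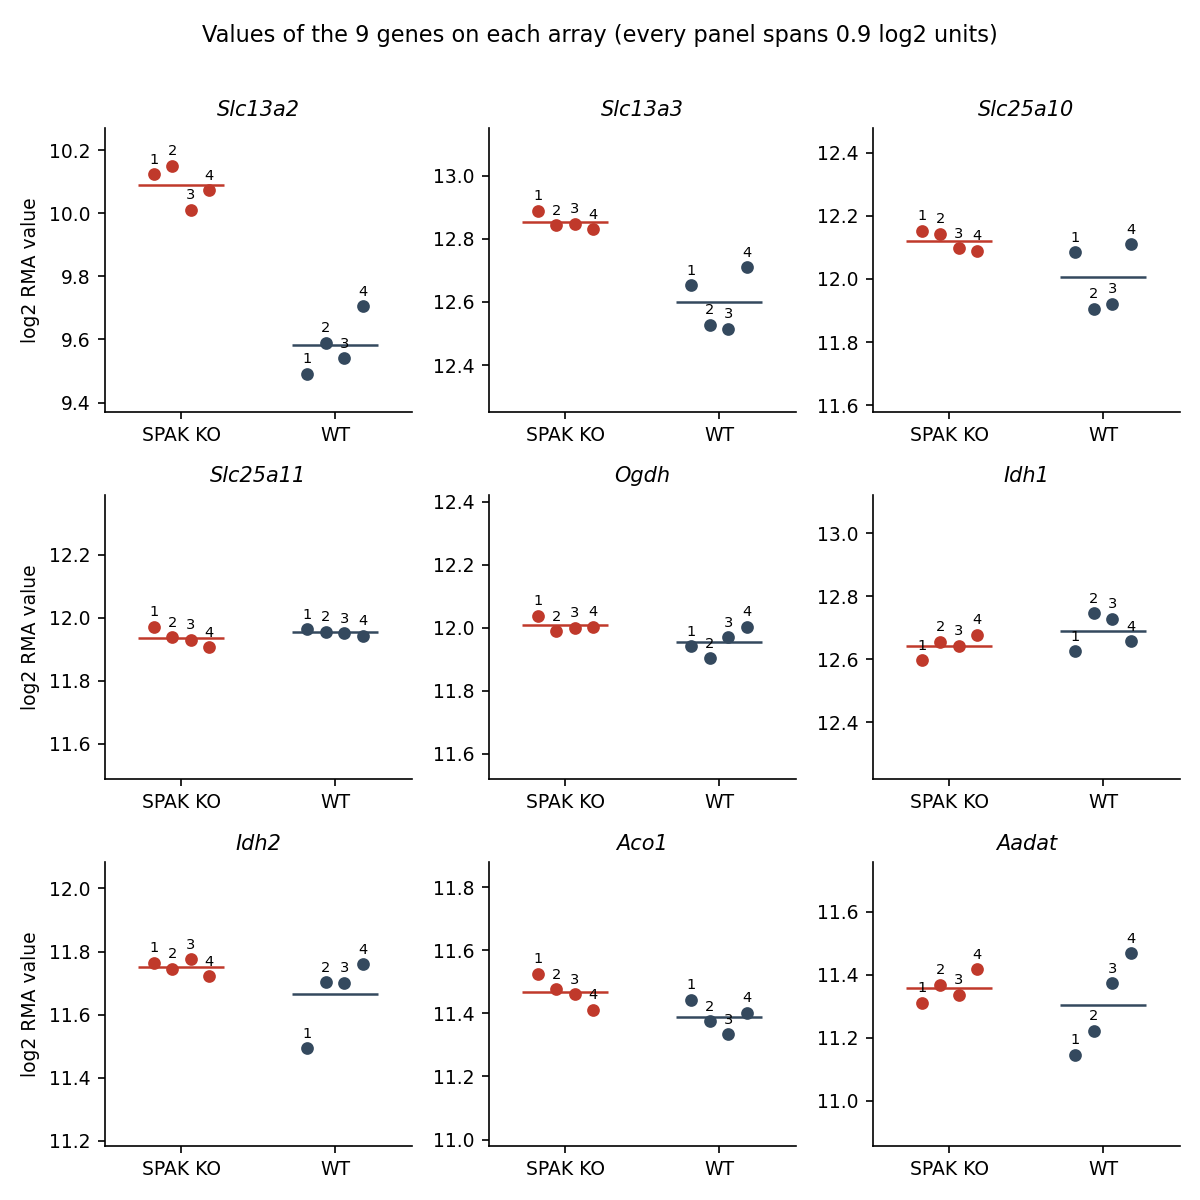
Log2 RMA values (y axis) of the 9 genes on the SPAK KO (red) and WT (dark blue) arrays, with array numbers beside the points and a line at the mean of 4 arrays. The panels span equal log2 ranges, and the groups stand apart for Slc13a2 and Slc13a3.

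The fold change of Slc13a2 was set against that of Slc13a3 as a log2 ratio within each array, whose level itself has no meaning across probe sets. That ratio was −2.84 to −2.69 in SPAK KO and −3.16 to −2.94 in WT. Its difference of 0.26 gave p = 0.0286 by a two-sided exact permutation test, the smallest p that 4 arrays against 4 allow. Adjusted over the 3 ratios tested, p = 0.0857 (exact permutation test) did not pass. That adjustment cannot pass 1 ratio alone, even at the smallest p. It therefore could not decide whether the 2 transporter genes responded unequally. With quantile normalization again the ratio's difference was 0.24, and with cyclic loess 0.23, each at an adjusted exact permutation p of 0.0429. In both settings the ratio of Slc25a10 to Slc25a11 reached the same adjusted p, which is what let these values fall below 0.0857.

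Both transporters belong to the proximal tubule, and the differences of that segment's markers lay on both sides of 0. Of 16 proximal tubule markers measured, 2 were called higher and 0 lower in SPAK KO, and 4 were higher and 1 lower at an unadjusted p under 0.05. The called genes were Aqp1, a water channel, at 0.34 and Slc3a1, a subunit of the cystine transporter, at 0.28, called in 5 and 2 of the 8 refits without 1 array. Differences were above 0 for 11 of the 16. Slc5a2, the apical glucose transporter SGLT2, at −0.17 (limma adjusted p = 0.205), and Hnf4a, a transcription factor, at −0.08 (adjusted p = 0.349), had every SPAK KO array below every WT array. In the other direction, Aqp1, Slc3a1, Slc22a8 (0.16) and Slc7a7 (0.08) had every SPAK KO array above every WT array. Over all genes 5.71% had every SPAK KO array below and 6.90% every one above. The markers without overlap were looked for after their values were seen. The mean log2 value over the 16 markers was 12.38 to 12.40 on SPAK KO arrays and 12.32 to 12.34 on WT arrays, without overlap. Relative to that mean within each array, Slc13a2 was higher by 0.45 and Slc13a3 by 0.19, each with p = 0.0286 by a two-sided exact permutation test that was not adjusted for the 9 genes. In a bulk sample, more cells of a type and more RNA per cell cannot be told apart.

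The mitochondrial carriers did not pass. Slc25a10 encodes the dicarboxylate carrier, which exchanges malate or succinate for phosphate across the inner membrane. Its log2 values were 12.15, 12.14, 12.10 and 12.09 on the SPAK KO arrays, against 12.08, 11.91, 11.92 and 12.11 on the WT arrays. SPAK KO 3 and 4 lay within the WT range, where WT 1 and WT 4 were high. The difference of 0.12 ± 0.06 (SE) had a fold interval of 0.988 to 1.19 (limma adjusted p = 0.325). Slc25a11 encodes the oxoglutarate carrier, which exchanges 2-oxoglutarate for malate. It read 11.97, 11.94, 11.93 and 11.91 in SPAK KO, against 11.96, 11.96, 11.95 and 11.94 in WT. The difference was −0.02 ± 0.04 (SE; fold interval 0.926 to 1.06, adjusted p = 0.866), and it became 0.042 once each array was centred on its median. The within-array ratio of Slc25a10 to Slc25a11 was 0.17 to 0.20 in SPAK KO and −0.05 to 0.17 in WT. Its difference of 0.13 gave p = 0.0571 (two-sided exact permutation test; 0.0857 adjusted over 3 ratios).

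Ogdh encodes the first enzyme of the 2-oxoglutarate dehydrogenase complex, which turns 2-oxoglutarate into succinyl-CoA. Its log2 values were 12.04, 11.99, 12.00 and 12.00 in SPAK KO, against 11.94, 11.90, 11.97 and 12.00 in WT, with WT 4 level with the SPAK KO arrays. The difference of 0.05 ± 0.05 (SE) did not pass (fold interval 0.967 to 1.11, limma adjusted p = 0.556), and it was −0.0059 relative to the proximal tubule markers.

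The NADP-dependent isocitrate dehydrogenases make 2-oxoglutarate, Idh1 in the cytosol and Idh2 in mitochondria. Idh1 read 12.60, 12.66, 12.64 and 12.68 in SPAK KO, against 12.63, 12.75, 12.73 and 12.66 in WT. Its difference of −0.05 ± 0.05 (SE; fold interval 0.898 to 1.04, limma adjusted p = 0.636) became 0.012 once each array was centred on its median. Idh2 read 11.76, 11.75, 11.78 and 11.72 in SPAK KO, against 11.49, 11.703, 11.701 and 11.76 in WT. The low value on WT 1 set most of its WT spread, 11.65 ± 0.14 (SD, n = 3). The difference was 0.09 ± 0.06 (SE; fold interval 0.966 to 1.17, adjusted p = 0.470), and 0.030 without WT 1. The within-array ratio of Idh1 to Idh2 was 0.83 to 0.96 in SPAK KO and 0.897 to 1.13 in WT. Its difference of −0.13 gave p = 0.0857 by a two-sided exact permutation test, and the same adjusted over 3 ratios.

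Aco1 encodes the cytosolic aconitase, which makes isocitrate for Idh1 and, when it loses its iron-sulfur cluster, binds iron-responsive RNA elements instead. It read 11.53, 11.48, 11.46 and 11.41 in SPAK KO, against 11.44, 11.38, 11.34 and 11.40 in WT. Only SPAK KO 4 fell within the WT range. The difference of 0.08 ± 0.05 (SE) did not pass (fold interval 0.980 to 1.14, limma adjusted p = 0.401). Of 7 other genes of iron regulation 0 were called by limma, and 1 was lower at an unadjusted p under 0.05 (median −0.03). This was Tfrc, the transferrin receptor, whose mRNA such binding protects, at −0.51, with 8.31 to 8.38 in SPAK KO and 8.46 to 9.09 in WT (adjusted p = 0.0598). Tfrc passed in 1 of the 8 refits without 1 array, that without WT 1, its lowest WT array (limma adjusted p = 0.00286). Among the other refits the adjusted p was up to 0.148.

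Aadat encodes an aminotransferase that moves amino groups from aminoadipate and kynurenine to 2-oxoglutarate. It read 11.31, 11.37, 11.34 and 11.42 in SPAK KO, against 11.15, 11.22, 11.37 and 11.47 in WT, so the SPAK KO arrays lay inside the WT range. The difference was 0.06 ± 0.07 (SE; fold interval 0.930 to 1.16, limma adjusted p = 0.706), and −0.0033 relative to the proximal tubule markers. Leaving out 1 array moved it between 0.0034 without WT 1 and 0.111 without WT 4. WT 2 and WT 3, which agreed for most genes, differed by −0.15 (WT 2 minus WT 3) for Aadat.

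**Figure D2:**
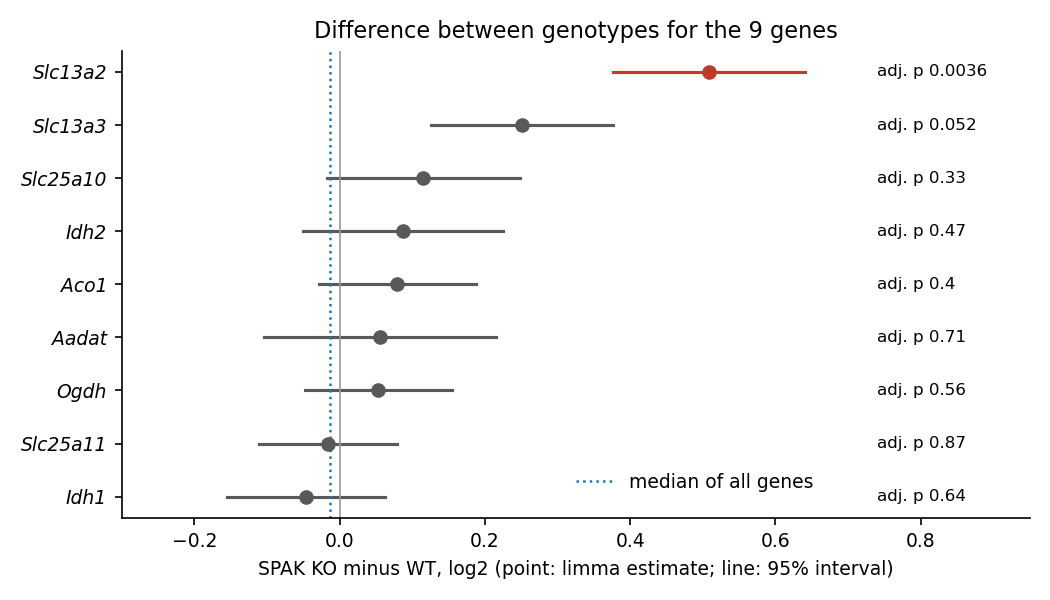
Log2 difference, SPAK KO minus WT, of each gene (points; limma estimate) with its 95% interval (lines) and adjusted p. Slc13a2 (red) passed, the interval of Slc13a3 also lay above 0, and the intervals of the other 7 genes spanned 0; Slc25a11 and Idh1 lay above 0 once each array was centred on its median.

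Across the set, 7 of 9 differences were above 0 and 2 below, with a median of 0.08, while 45.8% of all genes were above 0 and their median was −0.01. With means under 6 left out, the median over genes was 0.02, and 8 of the 9 members had a mean above 10. The share above 0 was not taken among genes as bright as the members. The members varied less between SPAK KO arrays than between WT arrays in 7 of 9 cases, with median ranges of 0.06 and 0.19. Among 1798 genes with a mean above 10, 79.1% were narrower in SPAK KO, so the members were like other bright genes in this. WT 1 and WT 4 both lay above WT 2 and WT 3 for Slc13a3, Slc25a10 and Aco1, and both below for Idh1.

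**Figure D3:**
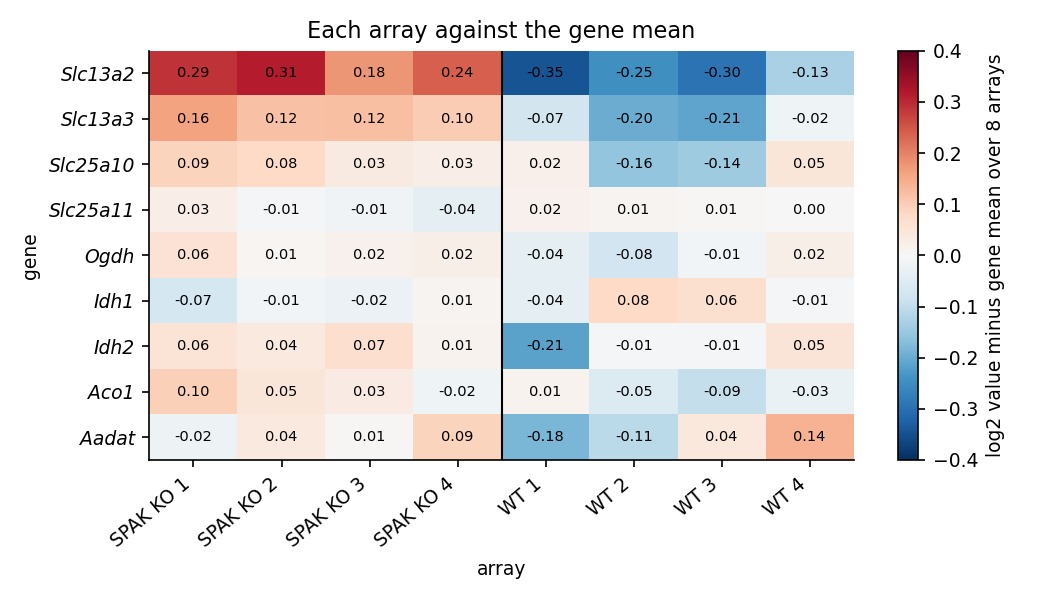
Log2 value of each gene (rows) on each array (columns) minus that gene's mean over the 8 arrays, red above and blue below the mean. The Slc13a2 row separates the genotypes, and WT 2 and WT 3 are low for Slc13a3 and Slc25a10 and high for Idh1.

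Likeness to the Slc13a2 pattern was measured as the root mean square distance between gene-centred log2 values over the 8 arrays. Outside the set, symbols of unnamed loci, such as those ending in Rik, were skipped. Of the rest, the nearest gene was Aldh1l1, a folate enzyme, at 0.045. Next were Hint2, a mitochondrial nucleotide hydrolase, at 0.050, and Hes1, a transcriptional repressor, at 0.061. Aldh1l1 was 11.25 to 11.36 on the SPAK KO arrays and 10.76 to 11.04 on the WT arrays.

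None of the enzymes that surround the members in the citric acid cycle passed. Of 17 measured, 0 were called by limma and 1 had an unadjusted p under 0.05, against 19.1% of all genes. That gene was Sdhb, the iron-sulfur subunit of succinate dehydrogenase, at 0.16 (limma adjusted p = 0.146), with 11.02 to 11.09 in SPAK KO and 10.82 to 10.97 in WT. Differences in this list ran from −0.04 to 0.16 with a median of 0.03. Suclg1, a subunit of succinyl-CoA ligase, was the next by p, at 0.09 (adjusted p = 0.335).

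Other carriers of these acids were also not called, 0 of 9 by limma, with 1 higher and 1 lower at an unadjusted p under 0.05 (median 0.07). Slc22a8 and Slc22a6 encode the basolateral organic anion transporters OAT3 and OAT1, which export 2-oxoglutarate in exchange for organic anions. Slc22a8 was 12.702 to 12.78 in SPAK KO and 12.51 to 12.66 in WT, a difference of 0.16 (adjusted p = 0.142). Slc22a6 differed by −0.01 (adjusted p = 0.880), or 0.044 with arrays centred on their median. Slc13a5, the citrate transporter of the same family as Slc13a2, was at −0.20 (adjusted p = 0.238). It was dim, with 6.17 to 6.42 in SPAK KO and 6.35 to 6.73 in WT.

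Among genes linked to 2-oxoglutarate through glutamate, 1 of 16 was called higher and 0 lower (median 0.09). At an unadjusted limma p under 0.05, 6 were higher and 3 lower, against 19.1% of all genes in either direction. The called gene was Slc38a3, a glutamine importer, with 9.13 to 9.17 in SPAK KO and 7.93 to 8.65 in WT. Its difference was 0.97 (limma adjusted p = 0.00595). Of 15 genes of lysine, tryptophan and kynurenine breakdown, 1 was called higher and 1 lower (median 0.16). At an unadjusted limma p under 0.05, 6 were higher and 2 lower. Both called genes encode aminotransferases that, like Aadat, act on kynurenine. Kyat1 was lower, at 10.38, 10.41, 10.40 and 10.34 on the SPAK KO arrays, against 10.97, 10.799, 10.81 and 10.72 on the WT arrays. Its difference of −0.44 ± 0.06 (SE, adjusted p = 0.00583) passed in all 8 refits without 1 array.

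Kyat3 was higher, at 8.56, 8.44, 8.51 and 8.57 in SPAK KO, against 8.27, 8.31, 8.22 and 8.28 in WT. Its difference of 0.25 ± 0.05 (SE, limma adjusted p = 0.0320) passed in 3 of the 8 refits without 1 array, being lost without WT 2 (0.0691), WT 3 (0.0785), SPAK KO 1 (0.107), SPAK KO 3 (0.0853) or SPAK KO 4 (0.107). It was also lost with quantile normalization again (0.0653), cyclic loess (0.0601), WT 2 and WT 3 averaged (0.0660), the replicate block (0.101) and arrays that agree counted once (1.0). The groups did not overlap for Kyat1 or Kyat3, in opposite directions, and overlapped for Aadat.

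Malate, pyruvate and citrate enzymes gave 0 calls by limma among 12, with 3 higher at an unadjusted p under 0.05 (median −0.01). Me3, mitochondrial malic enzyme, was at 0.13 (adjusted p = 0.193). Pdk4, an inhibitory kinase of pyruvate dehydrogenase, was at 1.04 (adjusted p = 0.147), with WT 1 above all SPAK KO arrays. Pdk4 passed in 1 of the 8 refits without 1 array, that without WT 1 (limma adjusted p = 1.2e-04). Among the other refits the adjusted p was up to 0.292. Adhfe1, which uses 2-oxoglutarate to oxidise hydroxybutyrate, and D2hgdh, which turns 2-hydroxyglutarate into 2-oxoglutarate, were at 0.02 and −0.02, with 0 of these 2 called by limma and 0 at an unadjusted p under 0.05. The first of these became −0.0012 with quantile normalization again, and the second 0.034 with arrays centred on their median.

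Oxgr1, the receptor for 2-oxoglutarate, was higher in SPAK KO. It read 9.47, 9.36, 9.38 and 9.60 on the SPAK KO arrays, against 8.95, 8.83, 8.88 and 8.82 on the WT arrays, a difference of 0.58 ± 0.06 (SE, limma adjusted p = 0.00227). The succinate receptor Sucnr1 was at 0.13 (adjusted p = 0.409). Of 8 intercalated cell markers, 5 were called higher and 0 lower. At an unadjusted limma p under 0.05, 7 were higher and 0 lower, against 19.1% of all genes in either direction. Of the 5 calls, 3 held in all 8 refits without 1 array, and the others in 2 refits each. The list had a mean log2 value over the list of 9.71 to 9.78 in SPAK KO and 9.29 to 9.52 in WT. The part of these cells in the Oxgr1 difference was not tested.

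**Figure D4:**
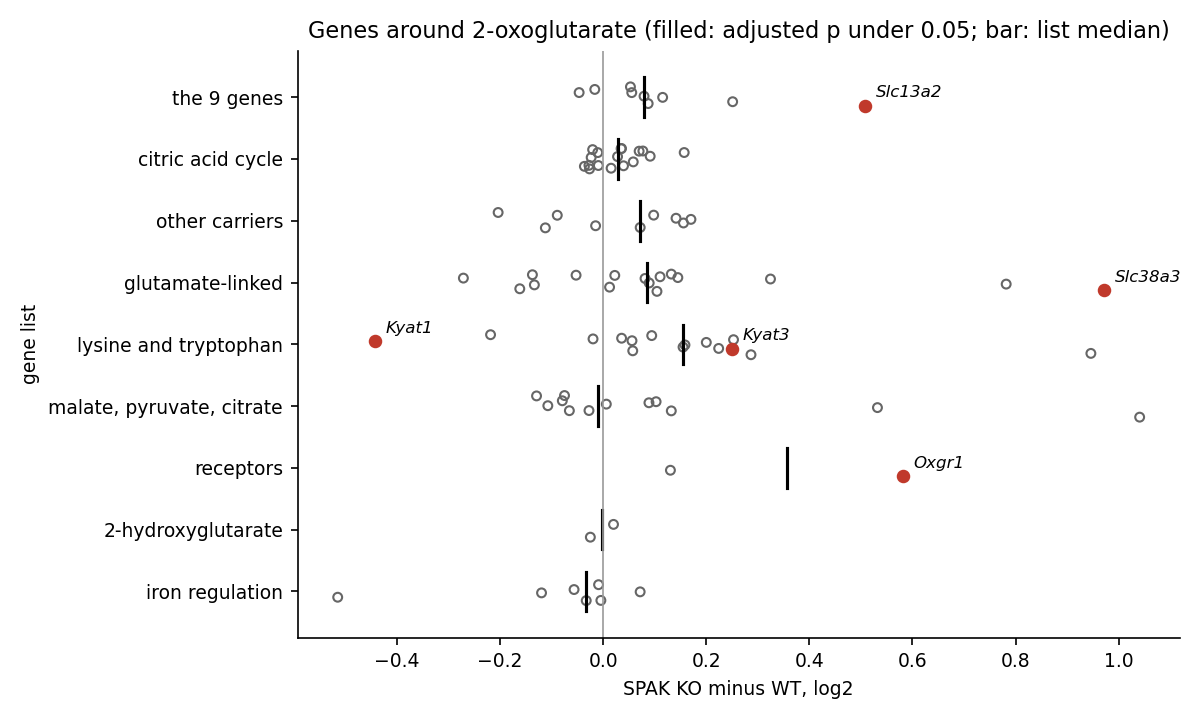
Log2 difference, SPAK KO minus WT (x axis), of the 9 genes and of 8 lists of genes around them (rows), filled where limma's adjusted p was under 0.05, with a bar at each list's median. The citric acid cycle genes lie between −0.04 and 0.16, and Slc13a2, Slc38a3, Kyat3 and Oxgr1 lie to the right and Kyat1 to the left as filled points.

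Over these 8 lists, 3 of 80 genes measured were called higher and 1 lower, where 1.39% and 0.682% of all genes were. At an unadjusted limma p under 0.05, 18 of the 80 were higher and 7 lower, against 19.1% of all genes in either direction. The lists were chosen with earlier results of these data known. Of the other marker lists, thick ascending limb had 1 of 6 called higher (Cldn16) and distal convoluted tubule 2 of 5 lower (Pvalb and Trpm6). Principal cell had 1 called higher (Scnn1b) and 1 lower (Aqp2) of 6. At an unadjusted limma p under 0.05, thick ascending limb had 5 higher and 0 lower. Distal convoluted tubule had 1 higher and 4 lower at that threshold, and principal cell 3 higher and 1 lower. Podocyte (4 genes) and endothelial (5 genes) markers had 0 called, with 2 podocyte genes higher and 1 endothelial gene lower at an unadjusted p under 0.05. Immune markers had 1 of 5 called lower (Cd3e), medulla 1 of 4 lower (Aqp4), and fat and adrenal 1 of 6 higher (Retn). At the unadjusted threshold, immune and medulla markers each had 0 higher and 2 lower, and fat and adrenal 2 higher and 1 lower. Of the genes named here, Cldn16, Pvalb and Trpm6 passed in all 8 refits without 1 array. Scnn1b passed in 2 of the 8, Aqp2, Cd3e and Aqp4 in 1 each, and Retn in 0. Dim values lay behind 3 of them, without detection calls. Aqp4 read 5.09 to 5.31 in SPAK KO and 5.48 to 5.75 in WT. Retn read 5.93 to 6.06 in SPAK KO and 5.52 to 5.81 in WT, and Cd3e 6.32 to 6.50 and 6.59 to 6.83.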

How the data were processed

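Log2 expression values of 8 arrays, 1 per labelled mouse, were used as deposited by the authors. Per the submitters' processing notes, RMA and Affymetrix Expression Console made them; their version and the build are not given in the sources used here. Such values carry no detection calls, and the number of arrays limits the precision. Of 35556 probe sets, 21789 had a single symbol in the platform annotation, and the brightest was kept for each of 19938 genes. A few listed genes are not reported here.

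SPAK KO was compared with WT by limma 3.58.1 in R 4.3.3 (lmFit, eBayes), genotype as the only term, with Benjamini-Hochberg adjustment over all genes and a threshold of 0.05. The fit was tested on simulated data with independent arrays and the WT spread in both groups. Those data held no agreeing arrays, so that test does not bear on them. Within-array ratios had exact permutation tests. Same-numbered arrays did not deviate together (correlations −0.13 to 0.13), and the main fit did not pair them. This cannot exclude pairing by number, as the spread between SPAK KO arrays may be technical. Members and lists were chosen with earlier results of these data known. Named were the members, each list's called genes (at most 4) or else its 2 smallest p, Stk39, Oxgr1, Slc38a3, Slc22a6 and the 3 profiles nearest to Slc13a2. Promoters came from RefSeq. Alternatives covered normalization, filters, eBayes options, probe sets, arrays left out, a block and agreeing arrays.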

Additional observations from a re-analysis of the deposited data

Results flagged for a closer look

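Among 92 sets of 4 arrays (each named gene in each genotype), 1 had an array far from the others, fewer than the 5% that chance flags. Aqp4, a water channel, read highest on WT 4, and the gap to the next WT array was 0.948 of the range of the 4 WT arrays.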

How the results depend on the processing

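Slc13a2 passed in 18 of 19 alternative fits, with differences of 0.47 to 0.57. It was lost with arrays that agree counted once (0.503, adjusted p = 1.0), where 1 SPAK KO sample is assumed to vary like WT; that fit called 0 genes in all, 0 of the 9 and 0 of the pathway, with 618 genes at an unadjusted p under 0.05. Calls over all genes were 414, and 762 with arrays centred on their median (88.3% higher, against 67.1%), 664 with means under 6 left out, 767 with trend and robust options, 253 with WT 2 and WT 3 averaged, 174 with the replicate block and 156 to 625 without 1 array (182, 251 and 625 without WT 2, 3 or 4; 156, 197, 188 and 164 without SPAK KO 1 to 4). Members called were 2, Slc13a3 being added, with arrays centred on their median (0.31) or on that of the named genes (0.26, chosen after seeing the data), and with means under 6 or the dimmest genes by rank left out or trend and robust options (0.25 each). Without 1 array they were 1 to 2, and the Slc13a3 difference was 0.222 to 0.287. Its unadjusted exact permutation p of 0.0286 (0.25, or 0.19 relative to proximal tubule markers) is the smallest possible. Pathway calls were 4, and 8 with arrays centred on their median, 7 with means under 6 left out, 9 with trend and robust options and 3 to 8 without 1 array (8 without WT 1 or WT 4).

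Arrays centred on their median reversed Slc25a11 (0.042), Idh1 (0.012), D2hgdh (0.034) and Slc22a6 (0.044). Relative to the proximal tubule markers, an alternative chosen after seeing the data, Ogdh (−0.0059) and Aadat (−0.0033) reversed and Slc25a11 (−0.075) reached p = 0.0286 (exact permutation, unadjusted). D2hgdh also reversed without WT 4 (0.0234) or SPAK KO 2 (0.0226; −0.064 to 0.0234 over the 8 arrays left out), Adhfe1 with quantile normalization again (−0.0012), and Nphs1 with the mean of all probe sets (−0.17). The cause was not tested. The ratio of Slc13a2 to Slc13a3 and that of Slc25a10 to Slc25a11 reached an adjusted exact permutation p of 0.0429 with quantile normalization again (0.24 and 0.15) and cyclic loess (0.23 and 0.13). Without WT 4 all 3 ratios reached 0.0286, the smallest exact permutation p of 4 against 3 arrays. Without 1 array they ran from 0.21 to 0.28, from 0.097 to 0.17 and from −0.18 to −0.098. With the replicate block, Slc13a2 passed (adjusted p = 0.0226), Slc13a3 did not (0.109), and the ratio differences were 0.26, 0.13 and −0.13, with sign-flip exact permutation p of at least 0.125, the smallest that 4 pairs allow, so that test could not pass 0.05.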
